A study of Mus musculus with 8 samples.

Results

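Integrins and laminins are the receptors and the sheet-forming ligands through which cells hold on to the matrix around them. An integrin is a pair of one alpha and one beta chain that spans the cell membrane, and the pair sets which matrix protein or cell surface protein is bound. A laminin is a cross-shaped trimer of one alpha, one beta and one gamma chain in the basement membrane, and its alpha chain carries most of the receptor binding. In the lung, stromal cells lay down interstitial matrix and share basement membranes with epithelium, endothelium, smooth muscle and the mesothelium that covers the organ. The chains were taken by gene name from the authors' comparison table: integrin alpha genes, integrin beta genes and laminin alpha, beta and gamma genes, with Itga8 left out by the rule. That gave 37 gene models under 36 names, 18 integrin alpha, 8 integrin beta and 11 laminin, of 30127 models in that comparison and 49671 in the count table. Of the 37, 36 passed the filter on low counts and were tested.

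The libraries came from adult mouse lung stroma. Both groups carried Gli2creERT2-tdt and the R26RYFP reporter, in which a tamoxifen-inducible Cre driven by Gli2 turns on yellow fluorescent protein, and YFP-positive live cells were sorted. The 4 control mice are labelled with these alleles alone, and the 4 SmoM2 mice also carried SmoM2, a constantly active form of the Hedgehog transducer Smoothened. Labelling and alteration thus depended on Cre driven by Gli2. Whether each sorted cell still expressed Gli2 was not measured. The SmoM2 lungs received daily intraperitoneal tamoxifen, 200 mg per kg on each of 5 days, per the labels' protocols, and for the control mice any dosing is not given in the sources used here. The titles carry 8 distinct animal numbers, so the spread behind each p-value is that between mice. Each library is called by its group and column number, because the columns do not say which mouse they hold.

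Library totals were 91.6 to 111.6 M count units. No gene among 20162 tested passed edgeR's quasi-likelihood test with Benjamini-Hochberg adjustment, the smallest adjusted p being 0.138, while 756 had an unadjusted p under 0.05. DESeq2 called 69 genes, and edgeR called 1, Gm20716, without SmoM2 library 4. The Hedgehog readouts did not separate the groups: Gli1 averaged 99.3 ± 32.9 CPM (counts scaled to a common library size by TMM; mean ± SD, n = 4 per group here and below) in control and 101.3 ± 21.5 in SmoM2 libraries, and Ptch1 172.5 ± 57.4 and 158.9 ± 50.8. Their log2 fold changes were 0.03 (95% interval -0.55 to 0.60) and -0.12 (-0.74 to 0.51), and that of Smo was 0.05 (-0.17 to 0.28), so the libraries are called SmoM2-labelled in what follows. Gli2 averaged 44.0 ± 6.0 and 42.7 ± 3.54 CPM, and the stromal receptor Pdgfra 1748 ± 293 and 1966 ± 155 CPM. In bulk libraries such as these, fewer cells of a type and less RNA per cell cannot be told apart.

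Among the chains, Itga3 and Lama5 had the lowest log2 fold changes of SmoM2-labelled over control libraries, and Lama2 was the sole chain with an unadjusted p under 0.05 and a higher mean. Itga3 is the alpha chain of integrin alpha 3 beta 1, a laminin receptor. Lama5 is the alpha 5 chain of laminins that this receptor is known to bind, so the pair is 1 chain of a receptor and 1 of its ligand. The beta chain Itgb1 had a log2 fold change of -0.005. The beta and gamma chains of the common laminins, Lamb1, Lamb2 and Lamc1, had -0.066, 0.285 and 0.252. Whether Itga3 and Lama5 came from cells in contact was not tested. None of the 36 tested chains passed the adjusted threshold, against 0% of all genes. The share of chains with an unadjusted p under 0.05 was 8.33% (3 of 36), against 3.75% of all genes tested. By direction, 2 chains (5.56%) were lower, against 2.01% of genes, and 1 chain (2.78%) was higher, against 1.74%. That count of 3 chains became 5 without SmoM2 library 3, where 6.26% of all genes had such a p, and 5 without SmoM2 library 4, where 2.99% had. It was 4 without SmoM2 library 1 (3.55% of genes) and 2 without control 1 (3.79%), control 2 (3.16%) or SmoM2 library 2 (2.76%). With the inflammatory level as a covariate it was 4 (4.39%). The groups did not overlap for Itga3 and Lama5, 5.56% of tested chains, against 2.44% of all genes, and both lay below control, a pattern that 1.42% of genes showed.

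The stretches just upstream of these 2 genes are printed because Itga3 and Lama5 were the chains whose groups did not overlap. They come from RefSeq promoter windows (build GRCm38.p6), cut where the annotated gene begins, and are written 5′ to 3′ on the gene's own strand. Capitals mark GC boxes, searched as GGGCGG on both strands, so a box on the other strand reads CCGCCC. Itga3 lies on chromosome 11 on the minus strand, with its upstream stretch at chr11:95076802-95076964, and Lama5 on chromosome 2 on the minus strand, with its stretch at chr2:180225860-180226109.
Itga3: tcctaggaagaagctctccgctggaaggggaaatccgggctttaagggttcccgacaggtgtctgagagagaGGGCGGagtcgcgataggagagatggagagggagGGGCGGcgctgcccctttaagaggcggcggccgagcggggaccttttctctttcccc
Lama5: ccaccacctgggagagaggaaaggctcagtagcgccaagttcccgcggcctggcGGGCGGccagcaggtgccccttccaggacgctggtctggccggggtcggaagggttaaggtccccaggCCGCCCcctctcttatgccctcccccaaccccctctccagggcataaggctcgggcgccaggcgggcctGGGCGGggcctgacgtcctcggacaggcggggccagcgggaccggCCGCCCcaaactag

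The Itga3 stretch holds 2 GC boxes in 163 bases and is 62.6% G or C, where the median of 32851 promoters trimmed to that length was 50.9%. The Lama5 stretch holds 4 GC boxes in 250 bases and is 72.4% G or C, against a median of 52.4%. A GC box occurred in 18.4% of all promoters at the shorter length and in 32.7% at the longer. Neither stretch holds the GLI consensus GACCACCCA, which 0.161% and 0.225% of promoters hold at those lengths, nor the AP-1 letters TGANTCA, held by 4.47% and 6.75%. These are matches of letters in short windows. Promoter windows were found for 22 of the 36 chain names.

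Itga3 (ENSMUSG00000001507, mm10 chromosome 11, 95044474 to 95076801) was measured at 14.4, 22.5, 20.5 and 17.7 CPM in control libraries 1 to 4 and at 8.73, 11.5, 10.99 and 9.25 CPM in SmoM2-labelled libraries 1 to 4. Every SmoM2-labelled library lay below every control library. The means were 18.8 ± 3.5 and 10.1 ± 1.32 CPM, a log2 fold change of -0.89 (SE 0.16, 95% interval -1.26 to -0.52), or 1.86-fold lower. The unadjusted p was 0.000443, rank 15 of all genes tested, and the adjusted p by edgeR's quasi-likelihood test with Benjamini-Hochberg adjustment was 0.578. DESeq2 gave an adjusted p of 0.00145 for the same counts, and Itga3 was the only one of 37 chains (2.7%) that it called, against 0.285% of the genes to which it gave an adjusted p. The authors' deposited table lists Itga3 with an adjusted p of 0.312, and it calls none of the 37 chains, against 0.0498% of its genes. Within sexes, read from Xist and Y-linked genes with 2 mice per group and sex, the log2 ratio of mean CPM was -0.79 in males and -0.99 in females. With no overlap between groups, both ratios had to be negative, so their shared sign adds no evidence.

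Lama5 (ENSMUSG00000015647, chromosome 2, 180176373 to 180225859) was measured at 55.0, 75.4, 79.3 and 56.6 CPM in control libraries and at 31.5, 46.7, 46.0 and 33.5 CPM in SmoM2-labelled libraries. The highest SmoM2-labelled library lay below the lowest control. Its means were 66.6 ± 12.5 and 39.4 ± 8.08 CPM, a log2 fold change of -0.76 (SE 0.18, 95% interval -1.17 to -0.34), with an unadjusted p of 0.00259, rank 50. The adjusted p was 0.9999 by edgeR and 0.0703 by DESeq2, and the authors' deposited table gives 0.756. The log2 ratio was -0.78 in males and -0.73 in females, where the lack of overlap again fixed the sign. Neither gene shares exon bases with another annotated gene.

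Bcam, a laminin alpha 5 receptor of the immunoglobulin family and not an integrin, belongs to the list of basement membrane partners. It was measured at 93.8, 75.6, 107.3 and 76.6 CPM in control libraries and at 45.5, 46.1, 41.1 and 29.7 CPM in SmoM2-labelled libraries, again with no overlap. Its log2 fold change was -1.12 (SE 0.17), with an adjusted p of 0.231 by edgeR and 9.33e-06 by DESeq2. Most listed markers of mesothelium, endothelium and epithelium also had lower means in SmoM2-labelled libraries. Of 10 mesothelial markers, 10 had lower means, 7 with an unadjusted p under 0.05, and 4 with no overlap between groups. Over all genes tested, 2.01% had such a p with a lower mean, and 1.42% lay below control without overlap. The same shares stand beside the endothelial and epithelial counts that follow. The median log2 fold change of the mesothelial list was -1.19, against -0.004 over all genes tested, and its summed level was 282.6 to 507.9 CPM across controls, against 108.2 to 228.8 CPM with SmoM2. The mesothelial surface protein Msln averaged 101.2 ± 31.9 and 38.3 ± 12.5 CPM. DESeq2 called Msln (adjusted p 0.00314), Upk3b (0.024) and Gpm6a (0.0477) of that list. Of 12 endothelial markers, 10 had lower means, 3 with an unadjusted p under 0.05, and the median log2 fold change was -1.10. The endothelial sums overlapped, at 124.2 to 268.1 and 125.2 to 194.9 CPM, while the groups did not overlap for Esam, which DESeq2 called (adjusted p 0.00828), and Kdr. Ramp2 (40.9 ± 4.83 and 50.4 ± 13.4 CPM) and Tek (37.2 ± 15.1 and 59.6 ± 29.9 CPM) had higher means. Control 4 was high for Cdh5, at 44.4 CPM against 4.49 to 8.60 in the other controls, and for Pecam1, at 32.8 against 7.63 to 9.42. Of 15 epithelial markers, 13 had lower means, 3 with an unadjusted p under 0.05, and the median was -0.49. The epithelial sums overlapped, at 395.5 to 1653 and 311.5 to 1075 CPM, while the groups did not overlap for Krt8, Krt18 and Hopx. Abca3 was among those with a higher mean, at 84.5 ± 9.41 and 88.2 ± 14.3 CPM. No marker of these 3 lists had all libraries at 0, and the part of such cells in the Itga3, Lama5 and Bcam values was not tested.

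**Figure D1:**
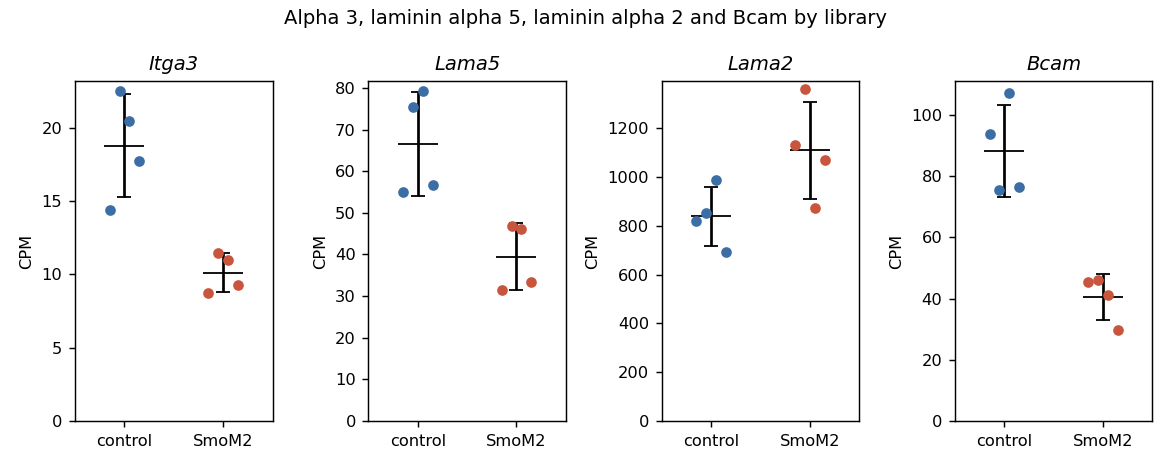
Levels of Itga3, Lama5, Lama2 and Bcam in each library, in CPM on linear axes from 0, with points for libraries and lines with bars for the mean ± SD of 4 libraries per group. The SmoM2-labelled points of Itga3, Lama5 and Bcam all lie below the control points, and those of Lama2 overlap them.

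Lama2, the alpha 2 chain of the laminins of muscle, nerve and interstitial stroma, was the most abundant laminin alpha chain per kilobase of exon over all 8 libraries. It was measured at 821, 854, 988 and 692 CPM in control libraries and at 1131, 1360, 873 and 1071 CPM in SmoM2-labelled libraries. SmoM2 library 3 lay among the controls, and the other 3 lay above all 4. The log2 fold change was 0.40 (SE 0.16, 95% interval 0.03 to 0.77), with an unadjusted p of 0.0357 and an adjusted p of 0.9999 by edgeR. Leaving out 1 library at a time moved that unadjusted p between 0.011 and 0.111. Its exons share 3.86% of their bases with an antisense gene, and counting by strand is not stated.

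Lama4, the alpha 4 chain, known from vessel basement membranes, was measured at 512, 609, 642 and 500 CPM in control libraries and at 506, 551, 537 and 476 CPM in SmoM2-labelled libraries. The groups overlapped, with a log2 fold change of -0.13 (SE 0.11). Lama3, the alpha 3 chain of the epithelial laminins, ranged from 5.88 to 15.5 CPM with a log2 fold change of -0.61 (SE 0.33). Lama1, the alpha 1 chain, known from embryonic basement membranes, ranged from 0.0423 to 1.38 CPM, and its log2 fold change of 1.61 had an SE of 1.02. The libraries SmoM2 2 and SmoM2 4 held the 2 highest Lama1 values.

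Levels of different chains were compared as CPM per kilobase (kb) of exon. On that scale Lama2 made up 50.8, 47.2, 49.5 and 47.4% of the summed laminin alpha level in control libraries and 60.5, 62.3, 52.0 and 60.0% in SmoM2-labelled libraries. Lama4 made up 44.6 ± 1.61% and 37.6 ± 3.99%, Lama5 5.53 ± 0.466% and 3.03 ± 0.662%, and Lama3 1.09 ± 0.274% and 0.68 ± 0.301%. The ratio of Lama2 to Lama5 was 10.4, 7.89, 8.69 and 8.52 in control libraries and 25.1, 20.3, 13.2 and 22.3 in SmoM2-labelled libraries, and that of Lama2 to Lama4 averaged 1.10 ± 0.0782 and 1.58 ± 0.267. Neither of these ratios overlapped between groups, whereas those of Lamb2 to Lamb1 (1.22 ± 0.35 and 1.53 ± 0.283) and of Lamc3 to Lamc1 (0.282 ± 0.0528 and 0.327 ± 0.147) did. The ratios were chosen after the values were seen and are descriptions, with no test. Shares and ratios also depend on the length used. With the longest transcript as length, Lama2 averaged 101.3 and Lama4 89.6 CPM per kb over all 8 libraries, against 59.6 and 44.9 by exon length.

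The beta and gamma chains of the common laminins were among the most abundant chains in both groups, and none had an unadjusted p under 0.05. Lamb1, the beta 1 chain, was measured at 1128, 851, 935 and 1126 CPM in control and at 912, 1000, 1048 and 898 CPM in SmoM2-labelled libraries, a log2 fold change of -0.07 (SE 0.12). Lamb2, the beta 2 chain, known from neuromuscular and kidney basement membranes, was measured at 713, 821, 835 and 573 CPM and at 968, 960, 718 and 937 CPM, a log2 fold change of 0.28 (SE 0.15). SmoM2 library 3 lay among the controls for Lamb2, and the other 3 lay above all of them. Per kb of exon, Lamb2 made up 54.0 ± 7.38% of the summed beta level in control and 59.9 ± 4.95% in SmoM2-labelled libraries, and Lamb3, the epithelial beta 3 chain, 0.295 ± 0.0661% and 0.243 ± 0.0370%. With the longest transcript as length the order turned, with Lamb1 at 170.7 and Lamb2 at 144.9 CPM per kb over all 8 libraries.

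Lamc1, the gamma chain that most laminins share, was measured at 1485, 1253, 1577 and 1072 CPM in control and at 1703, 1795, 1138 and 1780 CPM in SmoM2-labelled libraries, a log2 fold change of 0.25 (SE 0.19). Lamc3, a gamma chain of laminins at nerve and other restricted sites, was measured at 244, 321, 304 and 232 CPM and at 517, 378, 394 and 183 CPM, a log2 fold change of 0.42 (SE 0.28). For Lamc3 the lowest of all 8 libraries was SmoM2 4, and the other 3 SmoM2-labelled libraries lay above the controls. In shares of the gamma level per kb, Lamc1 held 77.4 ± 3.19% and 75.5 ± 8.65% and Lamc3 21.7 ± 3.17% and 23.7 ± 8.74%.

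Over all 8 libraries the 6 highest chains were Itgb1 at 181 ± 22.9 CPM per kb, Lamc1 at 178 ± 34.9, Lamb2 at 134 ± 23.1, Itgb5 at 121 ± 11.5, Lamb1 at 99.6 ± 10.6 and Lama2 at 59.6 ± 12.9 (mean ± SD, n = 8). The libraries of each neighbour in the first 5 overlapped, so that order is not set apart by the spread, while every Lama2 value lay below every Lamb1 value. The next were Lamc3 at 52.8 ± 17.6, Lama4 at 44.9 ± 4.73 and Itga5 at 40.5 ± 18.4, whose ranges overlapped each other and that of Lama2. Lama5 ranked 15 at 4.65 ± 1.54 and Itga3 ranked 19 at 2.53 ± 0.918.

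**Figure D2:**
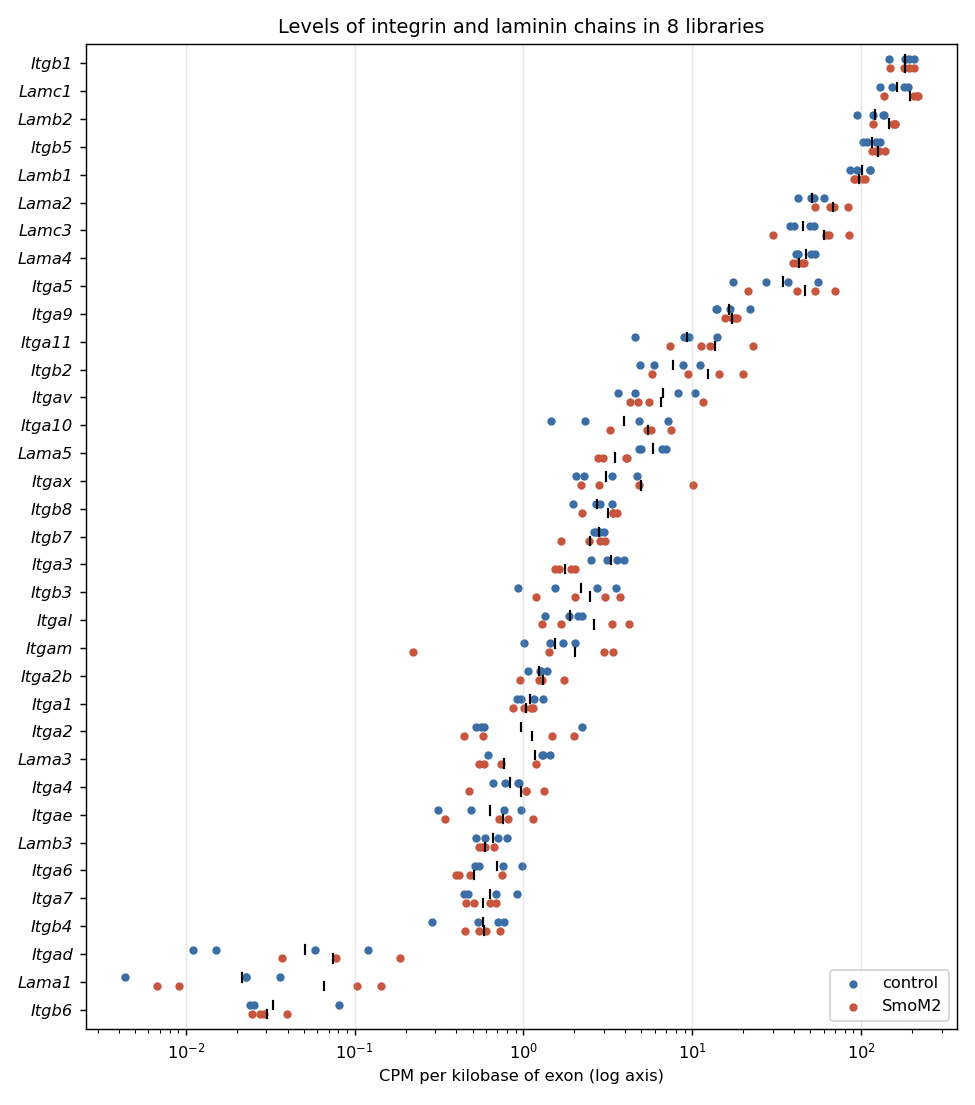
Level of each chain in CPM per kb of exon on a log axis, with 1 point per library and black ticks for group means, for control and SmoM2-labelled libraries. Itgb1 and Lamc1 sit at the top at 181 and 178, and Lama1 and Itgb6 at the bottom at 0.0435 and 0.0314; values of 0 and the second Itgam model are not drawn.

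Among integrin beta chains, Itgb1 and Itgb5 made up nearly all of the level per kb. Itgb1, the partner of most matrix-binding alpha chains, was measured at 743, 787, 597 and 838 CPM in control and at 733, 781, 835 and 605 CPM in SmoM2-labelled libraries. The 2 groups covered nearly the same range, and the log2 fold change was -0.005 (SE 0.14, 95% interval -0.33 to 0.32). Itgb5, which pairs with alpha v to bind vitronectin and latent TGF-beta, was measured at 457, 438, 386 and 366 CPM and at 493, 453, 413 and 438 CPM, a log2 fold change of 0.13 (SE 0.11). Their shares of the beta level were 57.8 ± 4.73% and 37.0 ± 3.41% in control and 54.9 ± 4.61% and 38.6 ± 3.46% in SmoM2-labelled libraries.

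Itgb8, which pairs with alpha v to activate TGF-beta, was measured at 21.8, 37.1, 31.3 and 29.7 CPM in control and at 37.7, 37.6, 39.8 and 24.5 CPM in SmoM2-labelled libraries, a log2 fold change of 0.22 (SE 0.20). SmoM2 4 was the low library of its group. Itgb3, the beta chain of the vitronectin and platelet fibrinogen receptors, ranged from 5.47 to 21.9 CPM with a log2 fold change of 0.19 (SE 0.46). Itgb4, the hemidesmosome beta chain that pairs with alpha 6, ranged from 2.00 to 5.35 CPM, and Itgb6, known from epithelium, from 0 to 0.577 CPM. Itgb7, a lymphocyte beta chain, ranged from 4.64 to 8.42 CPM with a log2 fold change of -0.16 (SE 0.19).

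Of the laminin-binding alpha chains, 3 of 3 had lower means, with a median log2 fold change of -0.45, and Itga3 alone had an unadjusted p under 0.05. Itga6, the partner of beta 4 in hemidesmosomes, ranged from 3.58 to 8.82 CPM with a log2 fold change of -0.45 (SE 0.28). Itga7, a muscle laminin receptor, ranged from 3.61 to 7.38 CPM with -0.14 (SE 0.26). Per kb, Itga3 stood at 3.29 ± 0.614 in control and 1.77 ± 0.232 in SmoM2-labelled libraries, above Itga6 at 0.698 ± 0.214 and 0.511 ± 0.163 and Itga7 at 0.629 ± 0.217 and 0.573 ± 0.107, whose levels overlapped each other.

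The groups overlapped for all 4 collagen-binding alpha chains. Itga11, a collagen receptor of fibroblasts, was measured at 45.8, 72.0, 49.0 and 23.6 CPM in control and at 65.8, 57.7, 38.1 and 117.5 CPM in SmoM2-labelled libraries, a log2 fold change of 0.55 (SE 0.40). SmoM2 4 was the highest and control 4 the lowest of the 8. Itga10, a collagen receptor of cartilage cells, was measured at 25.2, 37.1, 7.51 and 12.1 CPM and at 38.8, 27.8, 16.9 and 29.4 CPM, a log2 fold change of 0.46 (SE 0.47). A list of 11 cartilage markers summed to 1058, 1588, 340.2 and 153 CPM in the same control libraries and to 2180, 1193, 370.6 and 1413 CPM in SmoM2-labelled libraries. The lowest 2 control libraries and the lowest SmoM2-labelled library for Itga10 were the lowest for that list, and the part of such cells in the Itga10 values was not tested. The exons of Itga10 share 33.5% of their bases with the gene model Gm42957 on the same strand, so its counts are uncertain.

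Itga1, a collagen receptor with a preference for network collagens, ranged from 16.2 to 24.2 CPM, a log2 fold change of -0.07 (SE 0.14). Itga2, another collagen receptor, stood at 15.8 CPM in control 2, 14.2 in SmoM2 2 and 10.6 in SmoM2 4, against 3.15 to 4.17 CPM in the other 5 libraries. The high libraries were thus in both groups, and the log2 fold change was 0.21 (SE 0.63). Itga2 and Itga1 are neighbours on chromosome 13, with 20996 bases between them.

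Itga5, the alpha chain of the fibronectin receptor, was the most abundant per kb of the alpha chains taken, which leave out Itga8. Its level was 40.5 over all libraries, ahead of Itga9 at 17.0. Their ranges overlapped, and control 4 had Itga5 at 17.3 and Itga9 at 21.9. Itga5 was measured at 134, 183, 274 and 85.4 CPM in control and at 207, 265, 106 and 346 CPM in SmoM2-labelled libraries, a log2 fold change of 0.45 (SE 0.42). Control 1, control 4 and SmoM2 3 were low, and the other 5 were high. The cytokine Lif was low in the same 3 libraries, at 126.6, 324.9, 325.7 and 45.9 CPM across controls and 288.6, 369.5, 96.1 and 206.9 CPM in SmoM2-labelled libraries. Another cytokine, Ccl2, was also low there, at 21.8, 60.9, 76.9 and 13.1 CPM and at 37.7, 65.8, 18.3 and 74.9 CPM. Lif and Ccl2 were chosen for display after their values were seen, and no test was made of this likeness. Both belong to a list of 15 early response and inflammatory genes, whose sum did not follow it. That sum was 23534, 24597, 32620 and 22440 CPM in control and 28706, 25031, 24821 and 12737 CPM in SmoM2-labelled libraries. It was lowest in SmoM2 4, the library with the highest Itga5. The mean log2 CPM of the list was 8.72, 9.43, 9.65 and 8.76 in control and 9.32, 9.36, 8.85 and 8.82 in SmoM2-labelled libraries. Itgb3 was lowest in control 1, control 4 and SmoM2 3, at 9.01, 5.47 and 6.97 CPM.

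Itgav, the alpha v chain that pairs with beta 1, 3, 5, 6 and 8, was measured at 39.1, 49.3, 111.1 and 88.1 CPM in control and at 51.5, 124.5, 45.7 and 59.5 CPM in SmoM2-labelled libraries. Control 3, control 4 and SmoM2 2 were high, and the log2 fold change was -0.03 (SE 0.41). Itga9, a receptor for tenascin C and osteopontin, was steadier at 129, 108, 106 and 168 CPM and at 139, 132, 141 and 121 CPM, a log2 fold change of 0.06 (SE 0.15). Itga4, the receptor for VCAM1 and fibronectin on leukocytes and some stroma, ranged from 6.68 to 18.5 CPM with a log2 fold change of 0.23 (SE 0.28). Itga2b, the platelet alpha chain, ranged from 5.21 to 9.42 CPM, while a list of platelet markers summed to 6.65 to 12.8 CPM. Exons of Itga4 share 8.04% and those of Itgav 5.9% of their bases with genes on the opposite strand.

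Spread between libraries differed among the chains. The coefficient of variation over all 8 libraries was 9.51% for Itgb5, 10.5% for Lama4, 10.7% for Lamb1 and 12.6% for Itgb1. For Itga5, Itgav, Itgb3, Itga10 and Itga11 it was 45.3, 45.7, 45.9, 46.5 and 48.2%, and for Itga2 70.1%. Spread did not divide by class: the alpha chains Itga1, Itga9 and Itga2b stood at 13.6, 15.4 and 18.1%, and the abundant laminin chains Lamc1, Lama2 and Lamc3 at 19.6, 21.6 and 33.3%.

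**Figure D3:**
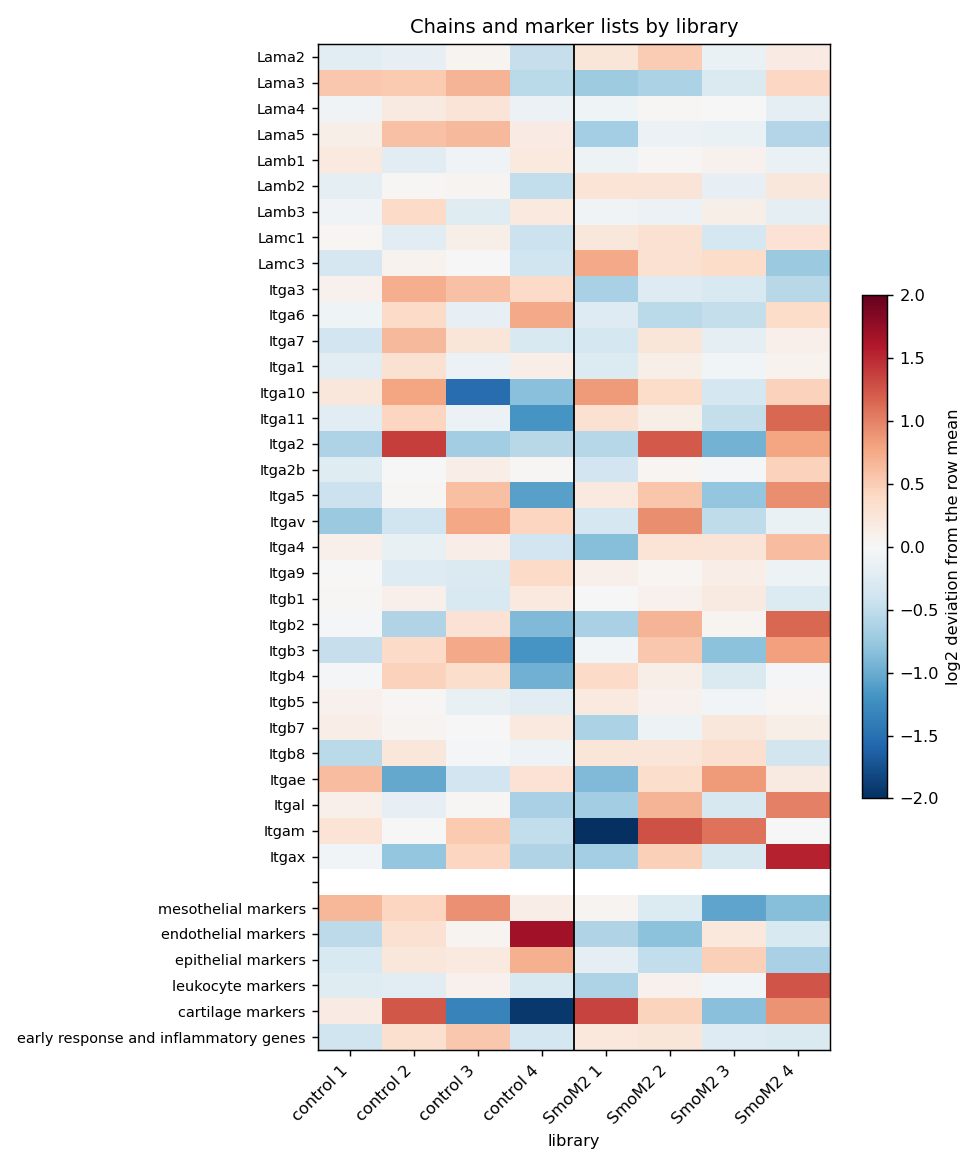
Log2 deviation of each chain from its mean over the 8 libraries, for chains with a mean of at least 1 CPM, with 6 marker lists below; columns are libraries and colours stop at 2 on either side. Itga3 and Lama5 are lower in all 4 SmoM2-labelled columns, Itga5 and Itgb3 are low in control 1, control 4 and SmoM2 3, and the leukocyte chains are highest in SmoM2 4 for Itgb2, Itgal and Itgax.

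Itgb2 and the leukocyte alpha chains had higher means in the SmoM2-labelled group, with values that overlapped, while the lymphocyte beta chain Itgb7 had a lower mean. Itgb2, the shared beta chain of the leukocyte integrins, was measured at 26.9, 18.1, 33.7 and 15.0 CPM in control and at 17.6, 44.1, 28.8 and 61.1 CPM in SmoM2-labelled libraries, a log2 fold change of 0.69 (SE 0.40). SmoM2 4 was the highest library and control 4 the lowest. All 5 tested leukocyte alpha chains had higher means, with a median log2 fold change of 0.48. Itgal, the alpha chain of LFA-1, ranged from 8.49 to 27.6 CPM with 0.48 (SE 0.37), and Itgax, the CD11c chain of dendritic cells and alveolar macrophages, from 9.81 to 48.6 CPM with 0.69 (SE 0.49). Itgae, the CD103 chain, ranged from 1.43 to 5.23 CPM and Itgad from 0 to 0.833 CPM. Without SmoM2 4 the log2 fold changes of Itgb2, Itgal and Itgax were 0.37, 0.16 and 0.08.

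The leukocyte marker list summed to 788.6, 573.8, 778.6 and 765.4 CPM in control and to 565.3, 864.5, 864.9 and 1727 CPM in SmoM2-labelled libraries. Of its 18 genes 15 had higher means and 1 an unadjusted p under 0.05, which 3.75% of all genes tested had. The median log2 fold change of the list was 0.51. SmoM2 4 was the highest library of that list and of the pan-leukocyte phosphatase Ptprc, at 93.0 CPM against 23.6 to 47.2 CPM in the other 7. The part of leukocytes in the sorted libraries in these chain values was not tested.

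Itgam, the CD11b chain of myeloid cells, was deposited as 2 gene models under 1 name. The first, ENSMUSG00000030786, was measured at 8.63, 7.19, 10.2 and 5.06 CPM in control and at 1.11, 17.1, 15.0 and 7.16 CPM in SmoM2-labelled libraries, with a log2 fold change of 0.38 (SE 0.66). The second, ENSMUSG00000108596, is named Gm49368 in the GENCODE M21 annotation and spans chromosome 7 from 128062683 to 128128160. It was listed at 0 in all 4 control libraries and at 3.68, 0.0114, 0 and 11.6 CPM in SmoM2-labelled libraries, and it did not pass the filter on low counts. A count of 0 allows up to 0.127 to 0.163 CPM in a control library, for counting error only. The 2 models share 3450 exon bases, 68.7% of those of Itgam, so reads could be split between them and the count of each is uncertain. The authors' deposited table gives the second model an adjusted p of 0.706, and 0.0015 before adjustment.

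With both models added, Itgam stood at 8.63, 7.19, 10.2 and 5.06 CPM in control and at 4.79, 17.1, 15.0 and 18.7 CPM in SmoM2-labelled libraries. SmoM2 1 then lay below all controls and the other 3 above them. The log2 fold change of the sum was 0.84 (SE 0.40), with an unadjusted p of 0.0663 by edgeR's quasi-likelihood test. In SmoM2 1 and SmoM2 4 the second model held more CPM than the first. Itgal, Itgam, Itgax and Itgad lie near each other on chromosome 7, and 1387 bases separate the second Itgam model from Itgax.

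Partners of the chains inside and outside the cell were described from 3 lists. Of 29 tested genes that link integrins to actin and signalling, 14 had higher and 15 lower means, with a median log2 fold change of -0.009, and none passed the adjusted threshold. Tln2, a talin that activates integrins from inside the cell, was measured at 44.0, 46.1, 43.6 and 49.6 CPM in control and at 50.0, 56.8, 58.6 and 58.0 CPM in SmoM2-labelled libraries, with no overlap and a log2 fold change of 0.29 (SE 0.08, unadjusted p 0.00681 and adjusted p 0.9999 by edgeR). Lims2, an adaptor of integrin-linked kinase, had a log2 fold change of 0.57 (SE 0.24) and an unadjusted p of 0.0448 by edgeR. The most abundant members, the tensins Tns1 and Tns3, averaged 2352 ± 711 and 2162 ± 477 CPM, and 706 ± 60.9 and 548 ± 155 CPM.

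Of 19 basement membrane partners and non-integrin laminin receptors, 13 had higher and 6 lower means, with a median of 0.17. Nid1, the linker between laminin and collagen IV networks, averaged 972 ± 136 CPM across controls, against 1354 ± 324 CPM with SmoM2, a log2 fold change of 0.48 (SE 0.20, unadjusted p 0.0389 by edgeR). SmoM2 library 3 lay among the controls for Nid1, as for Lama2, Lamb2 and Lamc1. Sparc and the proteoglycan Hspg2, the most abundant genes of the list, averaged 3150 ± 1353 and 3060 ± 762 CPM, and 1729 ± 507 and 2127 ± 620 CPM.

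Of 27 tested integrin ligands other than laminins, 12 had higher and 15 lower means, with a median of -0.02. Spp1, or osteopontin, a ligand of alpha v and alpha 9 integrins, averaged 8.55 ± 1.34 CPM against 14.8 ± 4.41, a log2 fold change of 0.79 (SE 0.23, unadjusted p 0.00824 by edgeR). One SmoM2-labelled library, the third, lay among the controls. Thbs1 and Col1a2, the most abundant ligands, averaged 8336 ± 4297 and 7799 ± 2402 CPM, and 6287 ± 2064 and 6206 ± 1407 CPM. The fibrinogen chain Fgb was at 0 in all libraries.

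Over all 36 tested chains, 22 had higher and 14 lower means in SmoM2-labelled libraries. The median log2 fold change was 0.16, against -0.004 over all genes tested, and it ran from 0.04 to 0.18 with 1 library left out. The median size without sign was 0.24, against 0.14 over all genes. By class, the median was -0.13 for the 5 laminin alpha chains, -0.07 for the 3 beta chains, 0.25 for the 3 gamma chains and 0.07 for the 8 integrin beta chains. It was 0.34 for the 4 collagen-binding alpha chains, 0.07 for the 3 taken that bind RGD sequences, without Itga8, and 0.14 for alpha 4 and alpha 9. By edgeR, Itga3 had an adjusted p of 0.578 and the other 35 chains one of 0.9999. Chains were well covered: 33 stayed above 1 CPM in every library, 16 averaged at least 20 CPM and 10 at least 100 CPM.

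**Figure D4:**
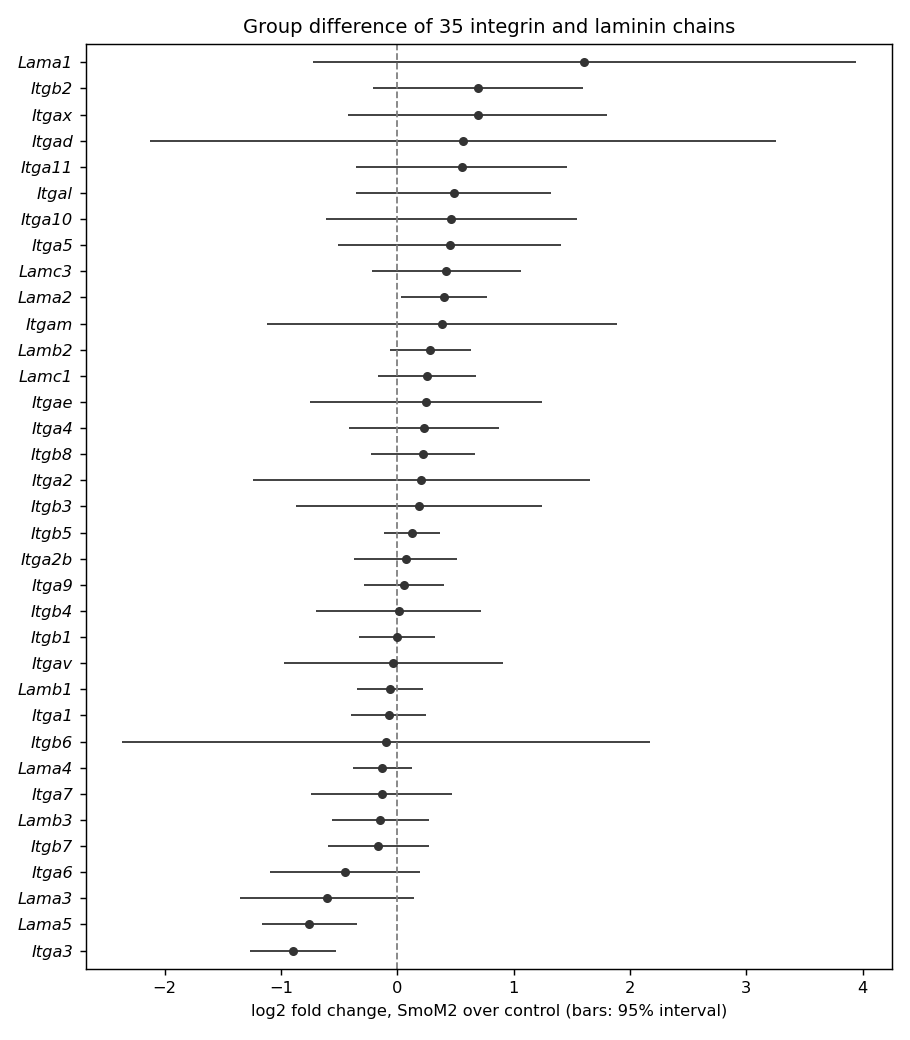
Log2 fold change of each of 35 tested chains, SmoM2-labelled over control, as a point with its 95% interval from edgeR, in order of log2 fold change. The intervals of Itga3 and Lama5 lie below 0 and that of Lama2 above it, and the other 32 include 0.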

How the data were processed

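RNA of sorted lung stromal cells was measured in 8 libraries, 4 control and 4 SmoM2. HISAT, StringTie, FastQC and DESeq are listed, without versions or roles, with the mm10 build, per the submitters' processing notes. The deposited values are named raw counts and were taken as the authors' estimated counts (expected counts) per gene, with no normalisation. They are whole numbers and were used without rounding. The most frequent value above 0 was 5 units, so 1 fragment was taken as 5 units, which gives 18.3 to 22.3 M fragments per library, and 3 fragments (15 units) as what a count of 0 allows. Per the file headers, the second deposited table holds the authors' normalised mean signal per group, the fold ratio, its log2 value and p-values.

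Counts were tested with edgeR 4.0.16 (R 4.3.3; TMM, filterByExpr, glmQLFit robust, quasi-likelihood test, Benjamini-Hochberg adjusted p under 0.05) over 20162 genes, with the group as the sole term. CPM uses TMM library sizes, SE divides the size of the log2 fold change by the root of F, and intervals cover 95%. Exon lengths and coordinates (1-based) are from GENCODE M21, which held all 37 models. Alternatives used DESeq2 1.42.0, limma 3.58.1, other size factors, no filter, counts divided by 5, covariates and libraries left out. On simulated data from these libraries, the test recovered 6, 25, 47 and 46 of 50 genes changed 1.5-, 2-, 3- and 4-fold, with 8 false calls in 20162 genes. The changed genes were planted together and drawn only from genes above a minimum mean CPM. Recovery of the lowest chains was thus not measured. With many true changes present, the adjusted threshold is also easier to pass than with few.

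The members, lists and tests were chosen with earlier results of these data known. Chains named with all 8 values averaged at least 20 CPM, had an unadjusted p under 0.05 or had groups that did not overlap. Itgam is an exception, given in full because its name covers 2 models. From each partner list the 2 most abundant genes, and up to 4 with an unadjusted p under 0.05, were named. One chain enters the counts and is not reported here by name.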

Additional observations from a re-analysis of the deposited data

Results flagged for a closer look

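Of 71 groups of 4 libraries examined, 4 held a library set apart from its group by Dixon's criterion, where chance gives about 1 in 20 groups. Itga2 was 15.8 CPM in control 2, against 3.75 to 4.17 CPM in the other controls. Itgb8 was 24.5 CPM in SmoM2 4, against 37.6 to 39.8 CPM in the rest of that group. SmoM2 3 was low for 2 laminin chains, with Lamb2 at 718.5 CPM against 937.1 to 968.5 CPM and Lamc1 at 1138 CPM against 1703 to 1795 CPM.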

How the results depend on the processing

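Across 14 to 16 alternatives per chain (Itgad, Itgb6 and Lama1 had 14, without the counts divided by 5, and Itgam 16), 22 of 35 chains kept their sign (8 lower, 14 higher) and 13 did not. Itga3 ran from -1.001 to -0.80 and Lama5 from -0.85 to -0.66 in log2 fold change. The count of genes called was 0 in edgeR and 69 in DESeq2, and 0 to 1 with 1 library left out; the 1 gene, Gm20716 without SmoM2 4, was named after its value was seen. DESeq2 called 1 chain, Itga3 (-0.89, adjusted p 0.00145), and, among the partners, Bcam. Signs turned for Itgad and Itgam with limma-voom (-0.027 and -0.160), for Itgb1 with sex as a covariate and in DESeq2 (0.001 in both), and for Itgb6 with sex, with the inflammatory level and with limma-voom (0.229, 0.410 and 1.392). The cause was not tested. With 1 library left out, log2 fold changes that changed sign ran as follows: Itga1 -0.149 to 0.022, Itga2 -0.224 to 1.009, Itga2b -0.096 to 0.189, Itga7 -0.269 to 0.094, Itga9 -0.024 to 0.219, Itgad -0.397 to 1.424, Itgae -0.024 to 0.526. For the others the ranges were Itgam -0.004 to 0.750, Itgav -0.465 to 0.254, Itgb1 -0.098 to 0.080, Itgb3 -0.072 to 0.518, Itgb4 -0.211 to 0.175, Itgb6 -0.517 to 0.888. Those of the label check were Smo -0.011 to 0.097, Gli1 -0.139 to 0.216, Ptch1 -0.350 to 0.132, Gli2 -0.128 to 0.013. Adding both Itgam models was chosen after seeing the data. The 10 highest chains per kb were the same with the longest transcript as length, but their order was not. Lamb1 then ranked 3 and Lamb2 4, and Lama4 ranked 7 and Lamc3 8. No paired analysis was possible because the labels number 8 different animals and nothing pairs the libraries. With 4 mice per group, changes of 1.5-fold were mostly missed on simulated data, and low chains such as Itgad, Itgb6 and Lama1 rest on few fragments.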
